A study of Mus musculus with 4 samples.

Results

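The genes described here encode cytokines of the interleukin-1 and interleukin-6 families with an antagonist and receptors of interleukin-1: Il33, Il1a, Il1b, Il18, Il1rn, Il1r1, Il1rl1, Il6, Il11 and Lif. They were taken as all probe sets that the platform annotation gives a single one of these symbols. Of the 10 genes, 9 had such a probe set, 13 probe sets in all, out of 45101 probe sets and 18193 named genes on the array. Il1rl1, which encodes the IL-33 receptor ST2, had none and was not analysed here. The genes were chosen with their signals on these same 4 arrays known, so their values are given as a description and without a test.

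Gene expression in mouse liver lines was compared on 4 Affymetrix Mouse430_2 arrays, between resident liver stem cells (RLSC) and the hepatocytic line MMH-D3. The RLSC group held 2 lines on 1 array each, MetE14/3 from a cyto-Met transgenic embryo liver (clone B2) and WTE14/1 from an embryo liver labelled wild type, both at 14 days post coitum. Cyto-Met is a truncated form of the hepatocyte growth factor receptor; the promoter that drives it is not given in the sources used here. The title of the second line reads WTE14/1 and its source name WT E14/3. RLSC colonies were picked for palmate morphology and expanded in basal medium for about 50 generations before freezing. MMH-D3 was measured on 2 arrays; the labels give no genotype or embryo age for it, and they describe for it only the primary culture in medium with epidermal growth factor, insulin-like growth factor II and insulin. Medium and line therefore cannot be told apart. Whether separate MMH-D3 cultures were used is not stated in the labels. A p-value then covers only the spread among these arrays. That spread joins the difference between the 2 RLSC lines with the spread of the MMH-D3 arrays, and the latter may be technical.

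Interleukin-1 family cytokines signal through paired receptors that recruit the adaptor MyD88 and switch on NF-kB. IL-33 is held in the nucleus and released from damaged barrier cells, IL-1 alpha and IL-1 beta drive acute inflammation, IL-18 prompts interferon gamma production, and the receptor antagonist encoded by Il1rn occupies the IL-1 receptor without signalling. Interleukin-6 family cytokines (IL-6, IL-11, LIF) share the receptor subunit encoded by Il6st and act through JAK kinases and STAT3, which in hepatocytes turns on acute phase proteins.

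In these cells the antagonist gene Il1rn and the alarmin gene Il33 stood far lower in both RLSC lines than on both MMH-D3 arrays. Between mean deposited signals this was 16.5-fold (Il1rn, 1451798_at) and 17.2-fold (Il33). The Il1rn mean fits neither RLSC line, as the lower MMH-D3 array was 8.40-fold above MetE14/3 and much further above WTE14/1. Il18 was lower by 3.88-fold with arrays that nearly met. Lif was the 1 gene past the low-signal filter whose RLSC arrays both lay above MMH-D3, by 2.27-fold between means (1421207_at). WTE14/1 read 195, but MetE14/3 was near MMH-D3, at 84.3 against 64.2 and 58.7. Il1b and Il1r1 overlapped between the groups, and Il1a, Il6 and Il11 did not pass the filter. Il1rn and Il1r1 also differed between the RLSC lines, by 16.2-fold (1451798_at) and 6.71-fold (1448950_at), with MetE14/3 higher. The other Il1rn probe sets gave 52.3-fold (1423017_a_at) and 6.11-fold (1425663_at).

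Promoter windows of Il33, Il1rn and Il6 are shown as the sequences in front of the genes with the most distant group signals and of the gene that names the second family. They come from RefSeq, build GRCm38.p6, and run from 250 bases before to 50 after an annotated start. Capitals mark matches on either strand to TATAAA, to the AP-1 site TGANTCA, to the C/EBP site TTGCNNAA, to the STAT site TTCNNNGAA or to the NF-kB consensus of 10 letters. Both Il33 windows and non-overlapping windows of Il1rn are given.
Il33 window 1, chr19:29924863-29925162, plus strand: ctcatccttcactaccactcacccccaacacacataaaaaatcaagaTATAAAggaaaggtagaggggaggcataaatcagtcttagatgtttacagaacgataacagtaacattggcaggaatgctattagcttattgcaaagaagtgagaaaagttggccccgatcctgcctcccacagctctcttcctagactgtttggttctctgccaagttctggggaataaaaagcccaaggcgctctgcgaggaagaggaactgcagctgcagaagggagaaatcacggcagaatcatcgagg
Il33 window 2, chr19:29945540-29945839, plus strand: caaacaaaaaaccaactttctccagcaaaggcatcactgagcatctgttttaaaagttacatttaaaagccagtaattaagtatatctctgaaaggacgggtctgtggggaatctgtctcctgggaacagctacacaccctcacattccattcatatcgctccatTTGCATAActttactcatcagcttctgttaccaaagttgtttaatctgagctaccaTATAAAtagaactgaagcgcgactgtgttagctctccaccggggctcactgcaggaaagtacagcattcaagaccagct
Il1rn window 1, chr2:24336610-24336909, plus strand: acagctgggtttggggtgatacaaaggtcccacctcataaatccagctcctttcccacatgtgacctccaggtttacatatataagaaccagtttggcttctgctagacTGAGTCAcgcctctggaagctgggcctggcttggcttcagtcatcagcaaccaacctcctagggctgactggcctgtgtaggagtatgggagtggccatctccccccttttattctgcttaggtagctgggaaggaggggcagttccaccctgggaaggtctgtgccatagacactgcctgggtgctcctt
Il1rn window 2, chr2:24345041-24345340, plus strand: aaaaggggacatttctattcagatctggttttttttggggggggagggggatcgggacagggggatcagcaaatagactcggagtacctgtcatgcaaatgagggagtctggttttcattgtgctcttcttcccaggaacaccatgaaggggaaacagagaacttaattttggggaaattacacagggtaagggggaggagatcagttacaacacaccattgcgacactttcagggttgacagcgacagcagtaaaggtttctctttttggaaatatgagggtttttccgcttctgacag
Il6 window 1, chr5:30012864-30013163, plus strand: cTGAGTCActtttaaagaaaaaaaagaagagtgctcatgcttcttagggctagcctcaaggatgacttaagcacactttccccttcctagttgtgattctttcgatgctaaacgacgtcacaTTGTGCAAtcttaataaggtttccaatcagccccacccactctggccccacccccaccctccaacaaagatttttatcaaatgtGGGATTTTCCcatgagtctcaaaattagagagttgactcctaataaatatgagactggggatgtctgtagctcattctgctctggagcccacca

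The first Il33 window held TATAAA beginning 203 bases before the start. The second Il33 window held TATAAA beginning 29 bases before the start and a C/EBP match 85 bases before it. The first Il1rn window held an AP-1 match beginning 141 bases before the start, and the second held none of the motifs. The Il6 window held AP-1, C/EBP and NF-kB matches beginning 249, 128 and 44 bases before the start. Over all 16 windows of the 10 genes, TATAAA was in 6, AP-1 in 5, C/EBP in 4, NF-kB in 2 (Il1r1 and Il6) and STAT in 0. Of 32851 promoter windows of the same length, 13.6% held TATAAA, 7.81% AP-1, 10.8% C/EBP, 4.51% NF-kB and 8.3% STAT. A match describes letters and not a bound site. In the RefSeq gene order, Il1r2, Il1r1, Il1rl2, Il1rl1, Il18r1 and Il18rap follow each other on chromosome 1 with 0 protein-coding genes between neighbours, Il1a and Il1b are neighbours on chromosome 2, and Il33 stands apart on chromosome 19. The neighbours Il1a and Il1b had arrays in a different order.

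The arrays formed pairs by their spiked poly-A controls, transcripts added to the RNA before labelling. Over 24 such probe sets the median signal was 10.6-fold higher on MetE14/3 and MMH-D3 array 1 than on WTE14/1 and MMH-D3 array 2, while 18 hybridization controls differed 0.878-fold. Each pair held 1 array of each group, so differences are also given within each pair, called the high and the low poly-A pair. The RLSC lines lay in different pairs, so line and pair cannot be told apart. The ratio of 3′ to 5′ actin signal, a sign of RNA integrity, was 1.13 on both RLSC arrays and 1.13 and 1.24 on the MMH-D3 arrays. Detection calls were not used here; a signal of about 11.7, the level below which probe sets were filtered out on their mean, marks the low range. Of the 13 probe sets, 9 passed this filter, covering 6 genes, and Il1a, Il6 and Il11 did not pass.

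**Figure D1:**
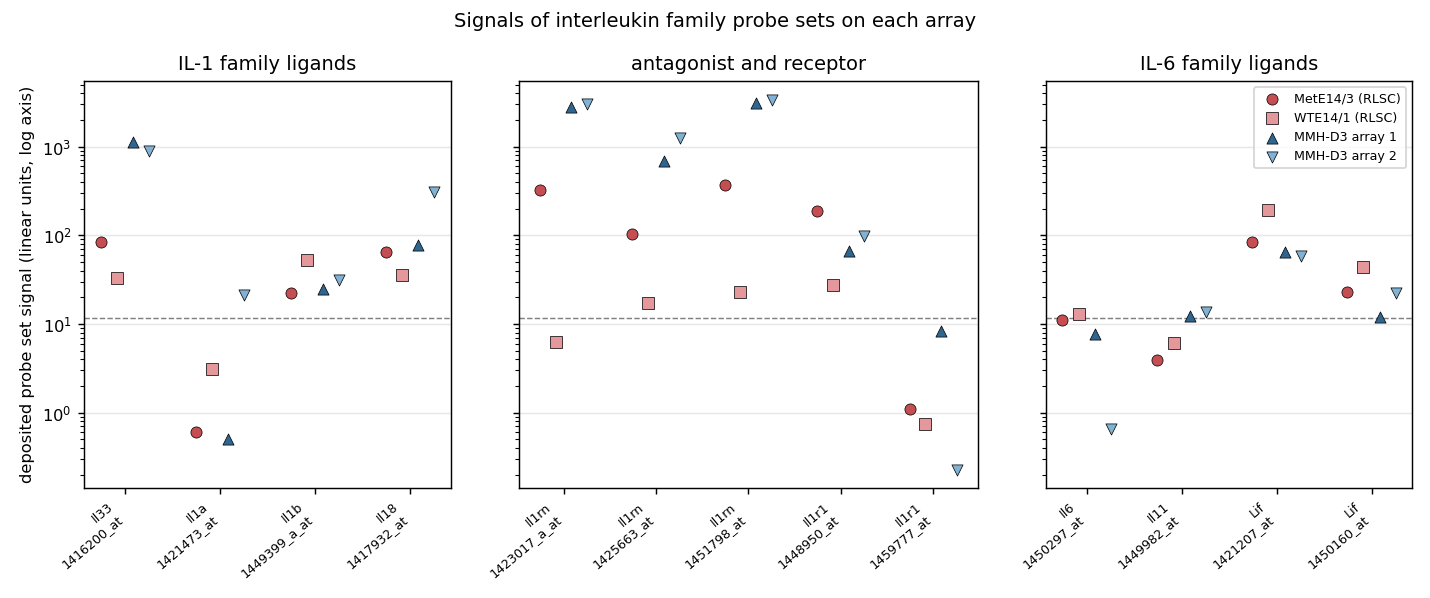
Deposited signal (linear units on a log axis) of each of the 13 probe sets on the 4 arrays, by role of the gene; each point is 1 array and the dashed line is the filter level of about 11.7. Il33 and the 3 Il1rn probe sets separate the RLSC arrays (red) from the MMH-D3 arrays (blue), while Il1b and Il1r1 (1448950_at) overlap and Il1a, Il6 and Il11 lie around or below the line.

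Among the ligands of the IL-1 family, Il33 encodes the nuclear alarmin. Its probe set 1416200_at gave signals of 83.9 for MetE14/3 and 33.02 for WTE14/1, whereas MMH-D3 arrays 1 and 2 read 1122 and 893. Both RLSC arrays were low and both MMH-D3 arrays high, and the lower MMH-D3 array was 10.6-fold above the higher RLSC array. The RLSC mean was 58.5 ± 36.0 and the MMH-D3 mean 1008 ± 162 (SD, n = 2 each). On the quantile-normalized log2(signal + 4) scale the difference, RLSC minus MMH-D3, was -4.28, with -3.63 within the high and -4.94 within the low poly-A pair. All 4 signals lay above the filter level, but the 33.02 of WTE14/1 was close to the median signal of that array, 27.98. Without detection calls, presence of the transcript in the RLSC lines was not tested.

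Il18 encodes a cytokine that is made as a precursor and cut by caspase-1. Its probe set read 65.5 in MetE14/3 and 35.3 in WTE14/1, whereas the MMH-D3 arrays read 78.6 and 313. Both RLSC arrays lay below both MMH-D3 arrays, but the lower MMH-D3 array exceeded MetE14/3 by only 1.2-fold, and the MMH-D3 arrays differed from each other by 3.98-fold. The log2 difference was -1.91 over all arrays, -0.50 within the high and -3.32 within the low poly-A pair. Its size thus rested on MMH-D3 array 2: without that array it was -1.08.

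Il1b, the secreted inflammatory IL-1, read 22.5 in MetE14/3 and 53.4 in WTE14/1, whereas the MMH-D3 arrays read 24.9 and 31.3. The groups overlapped, with WTE14/1 the highest and MetE14/3 the lowest array. The log2 difference was 0.06, and its sign was opposite in the pairs, -0.35 in the high and 0.48 in the low one. Its probe set carries the suffix _a_at, which Affymetrix gives to probe sets that match several transcripts of 1 gene.

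Il1a, the membrane-associated IL-1, read 0.6 and 3.07 in MetE14/3 and WTE14/1, against 0.5 and 21.5 in MMH-D3. Only MMH-D3 array 2 exceeded the filter level. On this platform Il1a was thus in the low range in both RLSC lines and on 1 of the 2 MMH-D3 arrays, and no fold is given.

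Il1rn encodes the IL-1 receptor antagonist, which is made in a secreted and in intracellular forms. Probe set 1451798_at read 374 in MetE14/3 and 23.0 in WTE14/1, whereas the MMH-D3 arrays read 3139 and 3405. Probe set 1423017_a_at read 327 and 6.25 in these RLSC lines, against 2811 and 3021 in MMH-D3. Probe set 1425663_at read 105 and 17.1 in the RLSC lines, whereas the MMH-D3 arrays read 686 and 1250. All 3 put the 4 arrays in the same rough order, WTE14/1 lowest, MetE14/3 next, and both MMH-D3 arrays highest, and in each the lower MMH-D3 array was at least 6.55-fold above MetE14/3.

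For 1451798_at the RLSC mean was 198 ± 248 and the MMH-D3 mean 3272 ± 188 (SD, n = 2 each), so the RLSC lines differed from each other by more than their mean. The log2 differences of the 3 probe sets were -5.71 (1423017_a_at), -4.43 (1425663_at) and -5.13 (1451798_at). Within the high poly-A pair they ranged from -2.98 to -2.67 and within the low one from -8.45 to -6.19. Without WTE14/1 the difference of 1451798_at was -3.11 and without MetE14/3 it was -7.15. MetE14/3 thus stood below MMH-D3 and above WTE14/1 in Il1rn signal, while the MMH-D3 arrays differed by only 1.08-fold in this probe set.

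Il1r1 encodes the signalling receptor for IL-1 alpha and IL-1 beta, which Il1rn's product also binds. Probe set 1448950_at read 186 in MetE14/3 and 27.7 in WTE14/1, whereas the MMH-D3 arrays read 66.3 and 99.6. MetE14/3 was the highest and WTE14/1 the lowest array, so the groups overlapped and the MMH-D3 arrays lay between the RLSC lines. The log2 difference was -0.40, but 1.16 within the high poly-A pair and -1.96 within the low one. The second Il1r1 probe set, 1459777_at, stayed between 0.228 and 8.3 on the 4 arrays and so below the filter level on each.

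Lif encodes leukaemia inhibitory factor, an IL-6 family cytokine known for holding mouse embryonic stem cells undifferentiated. Probe set 1421207_at read 84.3 in MetE14/3 and 195 in WTE14/1, whereas the MMH-D3 arrays read 64.2 and 58.7. Probe set 1450160_at read 22.9 and 43.7 in the RLSC lines, whereas the MMH-D3 arrays read 12 and 22.3. In both probe sets WTE14/1 was highest and both RLSC arrays lay above both MMH-D3 arrays, although MetE14/3 and MMH-D3 array 2 almost met in 1450160_at. The log2 differences were 0.86 (1421207_at) and 0.60 (1450160_at); for 1421207_at the difference was 0.09 within the high poly-A pair and 1.64 within the low one.

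Il6 itself read 11.2 in MetE14/3 and 12.9 in WTE14/1, whereas the MMH-D3 arrays read 7.7 and 0.655. Il11, a cytokine of stromal cells, read 3.9 and 6.17 in the RLSC lines, whereas the MMH-D3 arrays read 12.2 and 13.5. The Il6 arrays of RLSC both lay above and the Il11 arrays of RLSC both below those of MMH-D3, but 1 of 4 Il6 values and 2 of 4 Il11 values exceeded the filter level. Neither gene passed the filter and no fold is given.

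**Figure D2:**
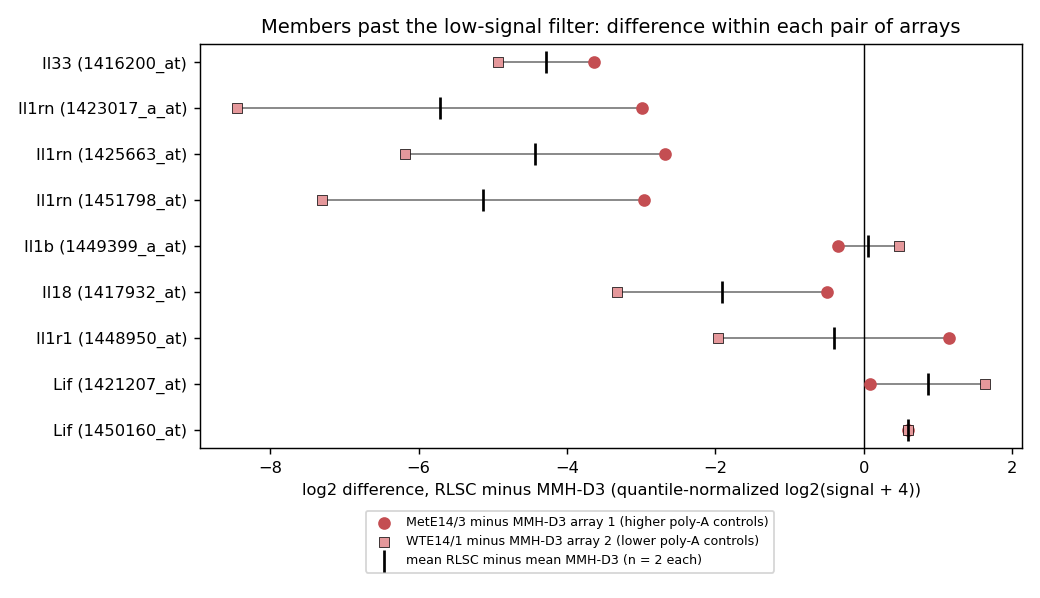
Log2 difference, RLSC minus MMH-D3, for the 9 probe sets past the filter; circles are the high poly-A pair (MetE14/3 minus MMH-D3 array 1), squares the low pair (WTE14/1 minus MMH-D3 array 2) and bars the difference of group means (n = 2 each). Il33, Il18 and the 3 Il1rn probe sets are negative in both pairs, Lif is positive in both, and Il1b and Il1r1 cross 0.

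Of the 6 genes past the filter, 3 (Il33, Il1rn and Il18) had both RLSC arrays below both MMH-D3 arrays, 1 (Lif) had them above and 2 overlapped. Over all 12598 genes past the filter, 21.4% lay below and 20.8% above in the same sense. Since these arrays were used to choose the members, nothing is read from their count. Between the RLSC lines, 2 of the 6 were at least 4-fold apart on the log2(signal + 4) scale, Il1rn with a log2 difference of 4.10 and Il1r1 with 2.90, MetE14/3 minus WTE14/1. Across all genes 5.13% were that far apart between the RLSC lines and 5.96% between the MMH-D3 arrays. In the other 4 the same difference was 1.57 for Il33, 1.15 for Il18, -0.71 for Il1b and -1.08 for Lif. The IL-1 family genes Il33, Il1rn, Il18 and Il1r1 were thus higher in MetE14/3 and Il1b and Lif higher in WTE14/1, as a description of 2 arrays.

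Markers of the cell types these cultures could hold were read beside these signals. In these bulk samples fewer cells of a type and less RNA per cell cannot be told apart. The 6 hepatocyte markers with a probe set summed to 369 in MetE14/3 and 167 in WTE14/1, whereas on the MMH-D3 arrays they summed to 5493 and 9793, and 2 of them exceeded the filter level in both RLSC lines (Apob and Afp) against 6 in MMH-D3. Albumin (Alb) read 1.7 and 2.91 in the RLSC lines, whereas the MMH-D3 arrays read 44.7 and 440. The 6 cholangiocyte markers summed to 9246 and 4486 in RLSC, against 20812 and 27816 in MMH-D3. Krt19 and Tspan8 made up most of that MMH-D3 sum, and Sox9 lay the other way, at 123 and 220 in RLSC, against 27.6 and 13.5 in MMH-D3. The 6 mesothelial markers summed to 3052 and 2173 in RLSC, against 13841 and 18562 in MMH-D3. Like Il33 and Il1rn, the sums of these 3 lists were lower on both RLSC arrays; the part of these markers in the result was not tested.

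The 12 macrophage and leukocyte markers summed to 152 and 208 in RLSC, against 132 and 228 in MMH-D3, with 4 below the filter level on all arrays. In both RLSC lines 2 of the 12 exceeded it, and on both MMH-D3 arrays 3 did. Lyz2 was among these 3 and was lower on both RLSC arrays (0.6 and 12.5, against 29.4 and 15.3 in MMH-D3). The pan-leukocyte gene Ptprc read 13.7 and 2.54 in RLSC, against 3 and 10.98 in MMH-D3, and the macrophage gene Cd163 at most 1.22. Csf1r read 44 and 79.0 in RLSC, against 37.3 and 67.0 in MMH-D3. Cd68 read 33.7 and 40.2, against 30.8 and 33.1, and so lay slightly higher on both RLSC arrays. Csf1r and Cd68 were above the filter level on every array. The 8 endothelial markers summed to 66.3 and 95.0, against 42.5 and 124, and Pecam1 reached at most 5.07. Of the 8, 2 exceeded the filter level in both RLSC lines and 0 on both MMH-D3 arrays. These were Kdr (17.6 and 36.5, against 4.1 and 34.7) and Stab2 (18.9 and 20.3, against 7.7 and 16.1). The 6 mast cell markers summed to 46.6 and 35.03, against 22.2 and 62.3. The ranges of these 3 sums overlapped between the groups; the part of these cell types in the results was not tested. The 8 mesenchymal markers summed to 15802 and 28362 in RLSC, against 14049 and 14269 in MMH-D3, and Vim made up most of each sum. Contractile and pericyte markers were further apart than the sum. Acta2 read 1638 and 8962 in RLSC, against 47.5 and 38.7 in MMH-D3, Tagln 398.5 and 1989, against 8.8 and 1.23, and Pdgfrb 248 and 65.8, against 0.2 and 1.19. These 3 were thus higher on both RLSC arrays, as was Col1a2 (30.3 and 42.5, against 13.9 and 22.0). The rest of the list, Vim, Col1a1, Twist1 and Thy1, overlapped between the groups, and Twist1 stayed below the filter level on all arrays. The part of these markers in the Il33 and Il1rn signals was not tested.

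The other genes of the pathways stood in 9 lists of ligands, receptors, signalling proteins and target genes, drawn up from general knowledge but with earlier results of these data known, so their tests are not independent of the choice. Of 155 genes, 137 had a probe set and 96 passed the filter. None passed limma at an adjusted p of 0.05, higher or lower, where 0.913% of all 12598 genes passed (0.397% higher and 0.516% lower in RLSC). At an unadjusted p under 0.05 there were 19 of the 96, where 12.4% of all genes (1558) had one. The median difference of the 96 was -0.18, against 0.03 over all genes tested. After normalization both RLSC arrays lay below both MMH-D3 arrays at 32 of the 96 (33.3%) and above at 19 (19.8%), against 21.4% and 20.8% of all genes. With the poly-A pair as a block, 3 list genes (Hpx, Lbp and Mmp13) passed as lower. At that setting 97 genes passed as lower and 67 as higher over all 12598, against 65 and 50 in the main fit.

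**Figure D3:**
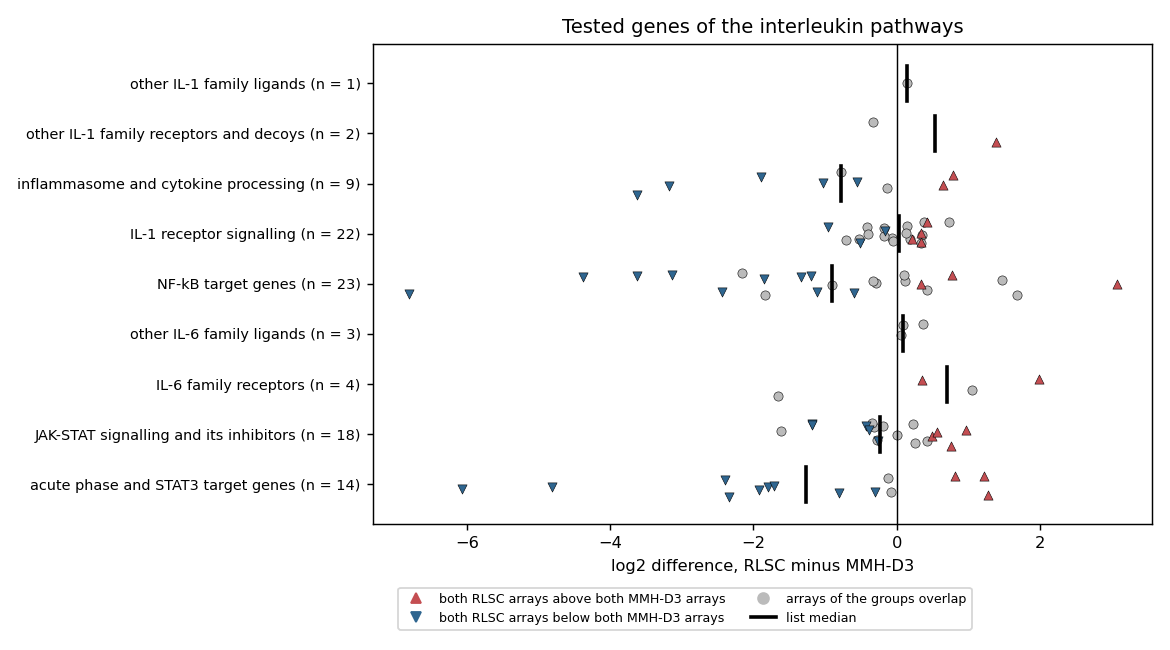
Log2 difference, RLSC minus MMH-D3 (n = 2 arrays each), of the 96 tested pathway genes by list; triangles mark genes whose normalized arrays do not overlap between groups and black bars list medians. The NF-kB target list (median -0.91) and the acute phase list (median -1.26) reach furthest to the left, and the IL-1 receptor signalling list (median 0.04) is centred near 0; no gene passed the test over all genes.

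Upstream, the receptors and transducers of IL-1 signalling were measured in both groups. Of 9 other receptors and decoys only Il18rap and Sigirr passed the filter. Sigirr, an inhibitory receptor, read 63.9 and 41.8 in RLSC, against 7.7 and 23.9 in MMH-D3 (difference 1.39, SE 0.64, limma adjusted p = 0.465). Il18rap, the accessory chain of the IL-18 receptor, overlapped between the groups (-0.33, SE 0.73, limma adjusted p = 0.922). The shared accessory chain gene Il1rap and the decoy Il1r2 did not pass the filter. Among ligands outside the chosen set, Il1f10 alone passed it, with overlapping arrays (0.15, SE 0.89).

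The signalling list held 22 tested genes, with a median of 0.04 and a range of -0.96 to 0.72. Its members with the highest mean signal were the ubiquitin-conjugating genes Ube2n (-0.18, SE 0.32) and Ube2v1 (0.12, SE 0.40), both with overlapping arrays; 1 of 2 Ube2n probe sets had the other sign. The adaptor gene Myd88, chosen after its values were seen, read 298 and 202 in RLSC, against 202 and 284 in MMH-D3 (-0.07, SE 0.46, limma adjusted p = 0.978).

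The processing list, of inflammasome genes and proteases that mature or release these cytokines, had a median of -0.78 over 9 tested. Its members with the highest means were the protease gene Capn2 (-0.14, SE 0.29) and the NLRP3 partner gene Nek7 (0.79, SE 0.39), neither passing. Gsdmd, the pore-forming protein through which IL-1 beta and IL-18 leave cells, was chosen after its values were seen. It read 323 in MetE14/3 and 51.4 in WTE14/1, whereas the MMH-D3 arrays read 1380 and 1655 (-3.62, SE 0.90, limma adjusted p = 0.165). WTE14/1 was lowest and MetE14/3 between it and MMH-D3, the order also seen for Il1rn. Without MetE14/3, Gsdmd passed (-5.03, limma adjusted p = 0.0254), but in that fit WTE14/1 stood alone and was assumed to vary like the MMH-D3 arrays, whose spread may be technical.

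NF-kB target genes had a median of -0.91 over 23 tested, 0 passing and 8 at an unadjusted p under 0.05, which 12.4% of all genes had. The cyclooxygenase gene Ptgs2 read 2077 and 1432 in RLSC, against 3212 and 6582 in MMH-D3 (-1.33, SE 0.44, limma adjusted p = 0.278). The NF-kB inhibitor gene Nfkbia read 2339 and 1199, against 1047 and 989 (0.77, SE 0.41, limma adjusted p = 0.534), and 1 of its 5 probe sets had the other sign. These targets thus lay on opposite sides, Ptgs2 lower and Nfkbia higher on both RLSC arrays, without passing.

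The next 4 targets were named after their values were seen. The collagenase gene Mmp13 read 23.8 and 13.2 in RLSC, against 720 and 7603 in MMH-D3 (-6.81, SE 1.09, limma adjusted p = 0.0561). The IkB-like gene Bcl3 read 49.1 and 34.4, against 318 and 377 (-3.14, SE 0.51, limma adjusted p = 0.0569). The neutrophil chemokine gene Cxcl5 read 25.8 and 1.07, against 192 and 310 (-4.38, SE 0.92, limma adjusted p = 0.113). Its WTE14/1 signal lay below the filter level of about 11.7. The growth factor gene Csf1, which supports macrophages, lay the other way, at 996 and 887 in RLSC against 199 and 56.5 in MMH-D3 (3.08, SE 0.69, limma adjusted p = 0.129). The MMH-D3 arrays differed in Mmp13 by a log2 difference of -3.38, array 1 minus array 2, and the call of Mmp13, Bcl3 and Cxcl5 changed with a setting, as given in the closing part.

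In the IL-6 pathway, the shared receptor gene Il6st read 310 and 276 in RLSC, against 229 and 202 in MMH-D3 (0.35, SE 0.43, limma adjusted p = 0.844). The LIF receptor gene Lifr, named after its values were seen, read 136 and 122, against 25.9 and 24.4 (1.99, SE 0.50, limma adjusted p = 0.169). Both RLSC arrays lay above both MMH-D3 arrays in Il6st and Lifr, 2 of the 4 tested receptors, and in Lif itself. Over all genes 20.8% lay above in this sense. Lif and Lifr were picked with their values known, so nothing is read from the match. The Lifr arrays of each group were close together, while Osmr and Il6ra overlapped between the groups. The oncostatin M receptor gene Osmr read 9.5 in MetE14/3 and 348 in WTE14/1, against 84.9 and 469 (-1.66, SE 1.496, limma adjusted p = 0.764). Il6ra, the IL-6 binding chain, also named after its values were seen, was likewise higher in WTE14/1 than in MetE14/3, at 88.7 and 11.8, against 4.1 and 31.7 in MMH-D3 (1.05, SE 0.98). Of the other ligands, Clcf1 and Ctf1 had the highest mean signals, overlapped between the groups and did not pass (0.05, SE 0.45, and 0.36, SE 0.97); 2 of 3 Clcf1 probe sets had the other sign.

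JAK-STAT genes had a median of -0.23 over 18 tested, with a range of -1.61 to 0.96. The phosphatase genes Ptpn11 (0.75, SE 0.41) and Ptpn2 (-0.26, SE 0.34) had the highest means and did not pass; of 4 Ptpn2 probe sets 2 had the other sign. Stat3, the main transcription factor of the family, read 366 and 549 in RLSC, against 322 and 753 in MMH-D3 (-0.19, SE 0.53), with overlapping arrays. Its feedback inhibitor gene Socs3 read 409 and 216, against 1079 and 423 (-1.19, SE 0.61, limma adjusted p = 0.514), with both RLSC arrays below both of MMH-D3. Stat3 and Socs3 were named after their values were seen.

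Acute phase and STAT3 target genes had a median of -1.26 over 14 tested of 31 with a probe set; the others did not pass the filter. After normalization both RLSC arrays lay below both MMH-D3 arrays at 9 of the 14 (64.3%, against 21.4% of all genes). They lay above at 3 (21.4%, against 20.8% of all genes). The 9 include Serping1, whose deposited signals overlapped (10.2 and 20.2 in RLSC, against 14.6 and 17.6 in MMH-D3). The list was chosen with earlier results of these data known, so nothing is read from these counts. Timp1, a protease inhibitor, and Cebpb, a transcription factor of the acute phase, had the highest means and opposite signs. Timp1 read 1916 and 1671 in RLSC, against 1566 and 387 in MMH-D3 (1.27, SE 0.64, limma adjusted p = 0.509). Cebpb read 823 and 316, against 1846 and 2003 (-1.92, SE 0.53, limma adjusted p = 0.202).

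Named after their values were seen, the lipopolysaccharide-binding protein gene Lbp read 2.2 and 11.1 in RLSC, against 200 and 1624 in MMH-D3 (-6.07, SE 0.98, limma adjusted p = 0.0579). The haem carrier gene Hpx read 0.7 and 21.6, against 195 and 355 (-4.81, SE 0.80, limma adjusted p = 0.0611). Both Lbp signals in RLSC and the Hpx signal of MetE14/3 lay below the filter level of about 11.7. Lbp and Hpx thus passed the filter through their MMH-D3 signals. With the poly-A pair as a block both passed limma, at limma adjusted p = 0.0266 for Lbp and 0.0312 for Hpx, but both were picked with their values known. That fit has fewer residual degrees of freedom than the main one and called 97 genes lower over all genes. Lbp and Hpx are also products of differentiated hepatocytes, whose markers were lower in RLSC; that part in the result was not tested. The metallothionein gene Mt2 (-2.34, SE 0.54) and Junb (-1.72, SE 0.49) were lower on both RLSC arrays and Cebpd, another acute phase factor, higher (1.22, SE 0.46), none passing; these 3 were also named after their values were seen.

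For the 3 members with the highest single-array signal, the 5 tested genes with the most similar profile were found by the Euclidean distance between log2 values over the 4 arrays, each gene centred on its own mean. For Il1rn these were Frmd4b (distance 0.492), Hnf4a, Hgfac, Cdh1 and Gcnt3 (0.653). Hnf4a, the hepatocyte transcription factor gene, read 205 and 6.76 in RLSC, against 1049 and 1687 in MMH-D3, and the E-cadherin gene Cdh1 read 522 and 45.2, against 3816 and 7390. Like Il1rn, all 5 were lowest in WTE14/1 and intermediate in MetE14/3. For Il33 the nearest were Sbsn (0.399), S100a8, Serpinb5, Vat1l and Marveld2 (0.518), with both RLSC lines low. Sbsn, which encodes a secreted protein of stratified epithelia, read 120 and 67.1, against 1822 and 1658, and the calprotectin subunit gene S100a8 read 12.4 and 6.07, against 227 and 246. For Il18 they were Niban1 (0.210), Tjp3, Apol7a, Ccdc71l and Itga7 (0.362), each with MMH-D3 array 2 highest. These genes were picked for their likeness on the same 4 arrays, so the shared orders come from that choice and are no separate result. With 4 arrays a small distance is a description of these profiles and no more.

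**Figure D4:**
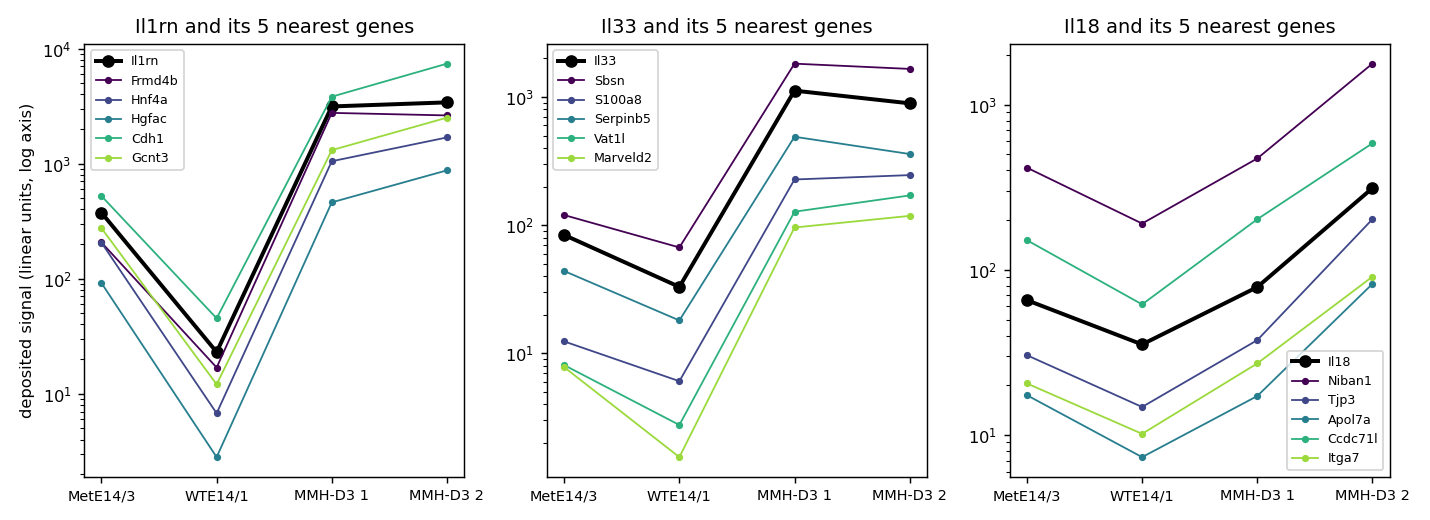
Deposited signal (linear units on a log axis) of Il1rn, Il33 and Il18 (black) and of the 5 genes nearest to each by centred log2 profile (colours) on the RLSC arrays MetE14/3 and WTE14/1 and MMH-D3 arrays 1 and 2; lines join the values of 1 gene. Il1rn and its neighbours dip in WTE14/1, Il33 and its neighbours are low in both RLSC lines, and Il18 and its neighbours peak on MMH-D3 array 2.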

How the data were processed

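RNA of 2 RLSC lines and of MMH-D3 (2 arrays) was measured on Mouse430_2 arrays. The authors deposited probe set intensity values on a linear scale, made with GCOS, per the submitters' processing notes; for GCOS no version or settings were given in those sources. The mean intensity without the lowest and highest 2% of deposited values was 200.001 on each array, and array medians were 16.9 to 28.0. The number of arrays limits the precision.

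Gene symbols were those of the platform annotation, brought up to date by Entrez identifier with RefSeq (GRCm38.p6): 34945 probe sets had 1 symbol, 932 several and 9160 none. The 64 controls were left out. Values entered as log2(value + 4), quantile normalized because array medians differed by 0.614 (over 0.25). The added 4 makes log2 differences of low genes smaller. Folds given in the text are ratios of deposited signals and do not carry it, apart from the 4-fold threshold. Probe sets whose mean fell under the 40th percentile were removed and each gene took its probe set with the highest mean. limma 3.58.1 in R 4.3.3 (lmFit, eBayes with intensity trend; 2 residual and 4.24 prior degrees of freedom) was fitted over all genes, two-sided, with Benjamini-Hochberg adjustment at 0.05. The fit was tested on simulated data.

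The members and lists were chosen with earlier results of these data known. Named genes were all members and, per list, up to 6 passing genes or, where none passed, the 2 with the highest mean; others are marked in the text. An exact permutation of 2 against 2 arrays cannot give a p below 0.333. Alternatives were the deposited scale, pseudocounts of 1 and 16, no filter or a 60th percentile filter, the median of probe sets, no trend, leaving out each array, and the poly-A pair as a block.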

Additional observations from a re-analysis of the deposited data

How the results depend on the processing

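Il33, Il1rn and Il18 stayed lower and Lif higher in RLSC, as differences, under every alternative run and in both poly-A pairs; over the alternatives, pairs aside, the ranges were -5.03 to -3.58, -7.15 to -3.11, -2.67 to -1.08 and 0.33 to 1.40. Il1b (-0.29 to 0.41) and Il1r1 (-1.81 to 1.08) changed sign with the RLSC line left out. Without a filter 2 members lay above MMH-D3 and 4 below, against 1 and 3 in the main setting. When an array was left out, 1 to 2 lay above and 3 to 4 below. Over all genes 4 were higher and 5 lower without a filter; leaving out an array gave 0 to 52 higher and 0 to 154 lower, with 9 and 18 without WTE14/1, 52 and 154 without MetE14/3, and 0 without either MMH-D3 array. Of the pathway genes 1 was lower with signals as deposited (Mmp13), 1 with a pseudocount of 16 (Hpx), 1 with the median of probe sets (Bcl3), 3 with the poly-A pair as a block, and 0 to 2 when an array was left out (Cxcl5 and Gsdmd without MetE14/3, Hpx without WTE14/1); the cause was not tested. A fit without an RLSC array takes its residual spread from the MMH-D3 arrays alone and assumes that the lone RLSC array varies like them, and the reverse holds without an MMH-D3 array. The RLSC labels carry no replicate numbers, so no block by replicate number was fitted. The poly-A pairs come from control probe sets, and that block gave 67 genes higher and 97 lower over all genes.

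Turned differences, none of them passing, were -0.43 (Il1f10), 1.07 (Il18rap), 0.00659 (Ube2n), -0.31 (Clcf1) and -0.35 (Ctf1) within the low poly-A pair, -0.24 (Ube2v1), 0.41 (Myd88) and 0.0894 (Stat3) within the high pair, -0.0734 (Clcf1) with the median of probe sets and 0.0364 (Myd88) with signals as deposited. When an array was left out, the ranges were -0.999 to 1.28 (Il1f10), -1.18 to 0.48 (Il18rap), -0.46 to 0.10 (Ube2n), -0.33 to 0.59 (Ube2v1), -0.19 to 0.30 (Clcf1), -0.96 to 1.66 (Ctf1), -4.00 to 0.62 (Osmr), -0.38 to 0.25 (Myd88), -0.73 to 0.38 (Stat3) and -0.0637 to 2.15 (Il6ra). With 2 arrays a group, low signals near 11.7 and the spread of the MMH-D3 arrays limit what could be called.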
